A study of Mus musculus with 16 samples.

Results

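The 38 endothelial genes described here code for proteins that mark or build the inner lining of blood and lymph vessels. They were matched by symbol to the gene names of the deposited expression table, and all 38 were found among the 48709 gene features counted. By role, 4 are arterial genes (Gja4, Gja5, Dll4, Sox17) and 3 are lymphatic genes (Prox1, Lyve1, Flt4). The other 31 are general endothelial genes, of which 11 are receptors and ligands (Kdr, Flt1, Tek, Tie1, Eng, Robo4, S1pr1, Ramp2, Apln, Aplnr, Egfl7), 11 are junction and surface proteins (Pecam1, Cdh5, Esam, Cldn5, Icam2, Cd34, Emcn, Plvap, Clec14a, Mmrn2, Ecscr), 7 are transcription factors or their cofactors (Sox7, Sox18, Erg, Fli1, Tal1, Lyl1, Lmo2) and 2 are the signalling proteins Nos3 and Rasip1. Endothelial cells invade the mesenchyme of a developing gland and form a plexus around the epithelial buds, while the epithelium itself carries no vessels inside its basement membrane. The plexus grows mainly through vascular endothelial growth factor (VEGF) acting on the receptor encoded by Kdr, and ETS and SOXF transcription factors keep cells endothelial. Arterial cells are set apart by Notch signalling and SOX17, and lymphatic cells by PROX1 and the VEGF-C receptor FLT4.

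The study took parotid and submandibular salivary glands of wild-type ICR mouse embryos at embryonic day (E) 13 and separated mesenchyme from epithelium. That gave 4 groups of 4 libraries each, labelled as independent biological replicates: parotid mesenchyme, submandibular mesenchyme, parotid epithelium and submandibular epithelium. No allele, agent or sort was named for any group, and whether several embryos were pooled in a library is not given in the labels. The study's design text also speaks of E13 glands that were cultured for days before dissection, and the labels do not say whether these libraries came from fresh or cultured tissue. Levels are CPM (gene counts scaled to a fixed library total) scaled by the trimmed mean of M-values (TMM). A gene is called changed at a Benjamini-Hochberg adjusted p under 0.05 over 18191 tested genes in edgeR's quasi-likelihood test.

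Gene counts ranged between 16912258 and 27646844 per library. Library numbers ran from 26 to 33 in the parotid samples and from 9 to 16 in the submandibular samples, so library number and gland cannot be told apart. The layer labels held: 10 epithelial markers summed to 2655 CPM in parotid epithelium, 2759 CPM in submandibular epithelium, 22.9 CPM in parotid mesenchyme and 42.3 CPM in submandibular mesenchyme. Single libraries led many of the endothelial genes. Replicate 2 of parotid mesenchyme was the highest of its group for 32 of the 38, at a median of 1.38 times the mean of the other 3 libraries, and replicate 4 of submandibular mesenchyme was the highest for 32, at 1.28 times. Among the epithelial libraries, replicate 4 of parotid epithelium was the highest of its group for 25 members, at a median of 2.52 times the others. In whole tissue, fewer endothelial cells and less of a transcript per cell cannot be told apart.

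**Figure D1:**
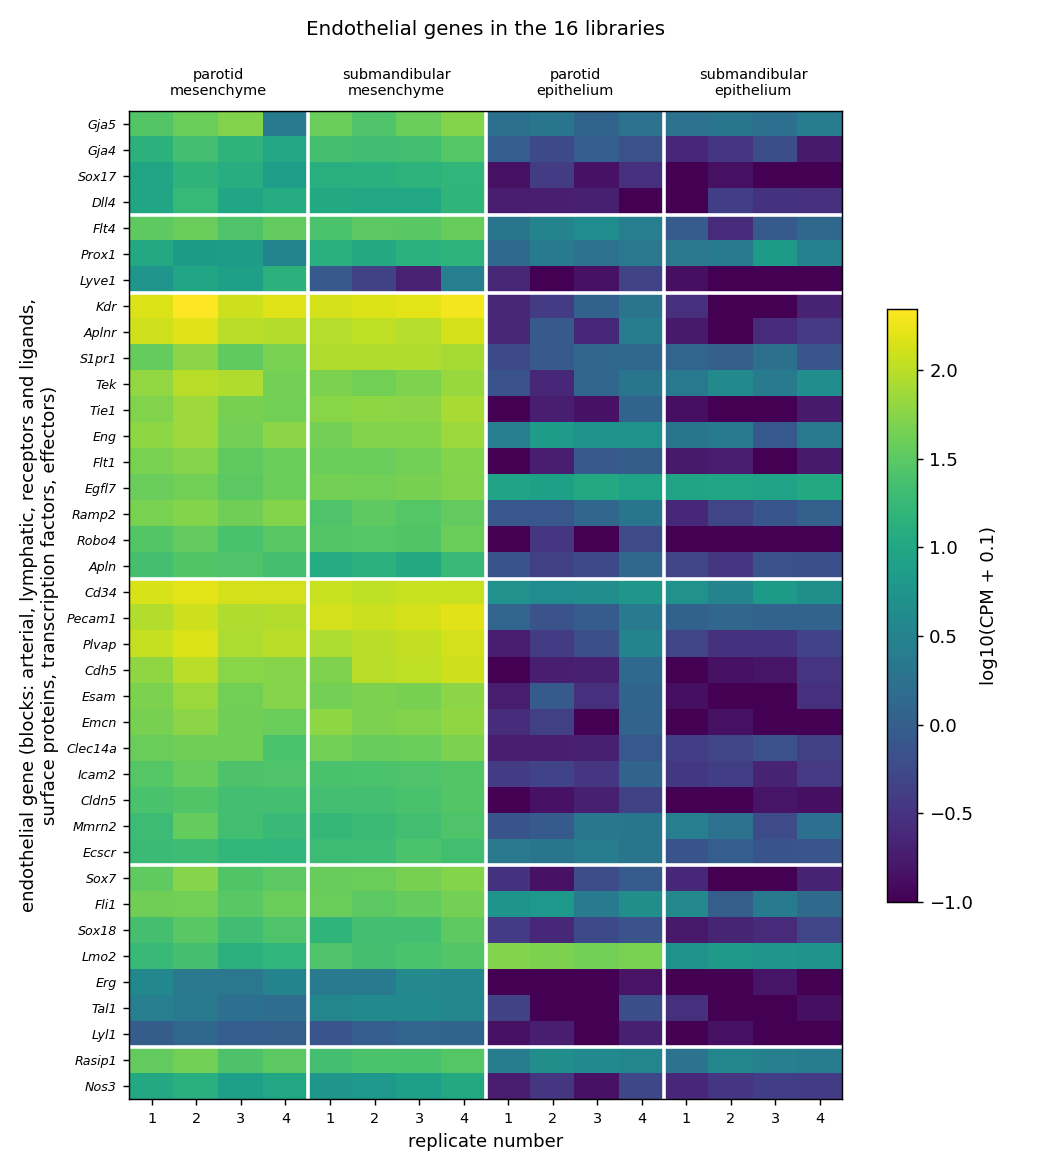
Level of each of the 38 endothelial genes (rows, grouped by role) in each of the 16 libraries (columns, grouped as parotid mesenchyme, submandibular mesenchyme, parotid epithelium and submandibular epithelium), as the colour of log10(CPM + 0.1). Nearly every row is bright in the 8 mesenchymal libraries and dark in the 8 epithelial ones, and Lmo2 is brightest in the 4 libraries of parotid epithelium.

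Endothelial transcripts were found mainly in the mesenchyme of both glands. All 38 genes were called between the layers, where 64.9% of all tested genes were called in the parotid and 67% in the submandibular gland, and for all 38 the libraries of the layers did not overlap, as for 57.8% and 62.6% of all tested genes: 37 were higher in mesenchyme in the parotid gland, where 33.5% of all tested genes were, and 38 were higher in mesenchyme in the submandibular gland, where 33.7% of all tested genes were. Lmo2, in the parotid gland, was the exception and was lower in mesenchyme, a direction called for 31.4% of all tested genes there. The median log2 difference of the 38, mesenchyme over epithelium, was 5.95 in the parotid gland and 6.15 in the submandibular gland, against medians of 0.00 and -0.01 over all tested genes. The summed level was 1630 ± 300.3 CPM in parotid mesenchyme and 96.8 ± 10.9 CPM in parotid epithelium, and 1678 ± 219.7 CPM in submandibular mesenchyme and 43.1 ± 2.82 CPM in submandibular epithelium (SD, n = 4 each). Without Lmo2 the epithelial sums were 49.3 ± 11.5 CPM in the parotid gland and 37.6 ± 3.00 CPM in the submandibular gland.

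The defining markers were far lower in the epithelium than in the mesenchyme. Kdr, the main VEGF receptor, was at 148, 222, 125 and 154 CPM in parotid mesenchyme and at 0.127, 0.281, 0.990 and 1.83 CPM in parotid epithelium. It was at 135, 149.8, 159.5 and 194 CPM in submandibular mesenchyme and at 0.180, 0, 0 and 0.110 CPM in submandibular epithelium. The layers lay far apart in each gland, with a log2 difference of 7.67 ± 0.45 in the parotid (SE, adjusted p = 1.02e-09) and 10.85 ± 0.58 in the submandibular gland (adjusted p = 2.92e-10). Pecam1, the adhesion protein CD31, averaged 98.7 ± 17.6 CPM in parotid mesenchyme and 1.24 ± 0.778 CPM in parotid epithelium. In the submandibular gland it averaged 136 ± 14.4 CPM in mesenchyme and 1.07 ± 0.0679 CPM in epithelium (SD, n = 4 each). Its log2 difference was 6.31 ± 0.26 in the parotid and 6.98 ± 0.27 in the submandibular gland, and every epithelial library lay below every mesenchymal one. Cdh5, which codes for VE-cadherin of endothelial junctions, averaged 68.4 ± 21.7 CPM in parotid mesenchyme and 0.372 ± 0.621 CPM in parotid epithelium, where 1 library of 4 had no count. It averaged 94.0 ± 32.1 CPM in submandibular mesenchyme and 0.0783 ± 0.0971 CPM in submandibular epithelium.

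The size of the difference varied with the role of the gene. The junction and surface proteins had median log2 differences, mesenchyme over epithelium, of 6.63 in the parotid and 6.98 in the submandibular gland, and the receptors and ligands of 6.27 and 6.31. The arterial genes had medians of 5.33 and 6.33, the lymphatic genes of 3.49 and 5.36, and the transcription factors of 3.97 and 5.90. Nos3, the endothelial nitric oxide synthase, and Rasip1, a small GTPase effector needed for vessel lumens, had medians of 4.44 and 4.09. Expressed as a share of the mesenchymal level, the epithelial level had a median of 1.59% in the parotid and 1.06% in the submandibular gland. It was under 2% for 21 of the 38 genes in the parotid and for 24 in the submandibular gland. As sums, the members without Lmo2 had epithelial shares of 3.06% in the parotid and 2.27% in the submandibular gland. The sums of the 10 mesenchymal markers had 1.16% and 0.912%. The part of carried-over mesenchyme in the epithelial levels was not tested.

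**Figure D2:**
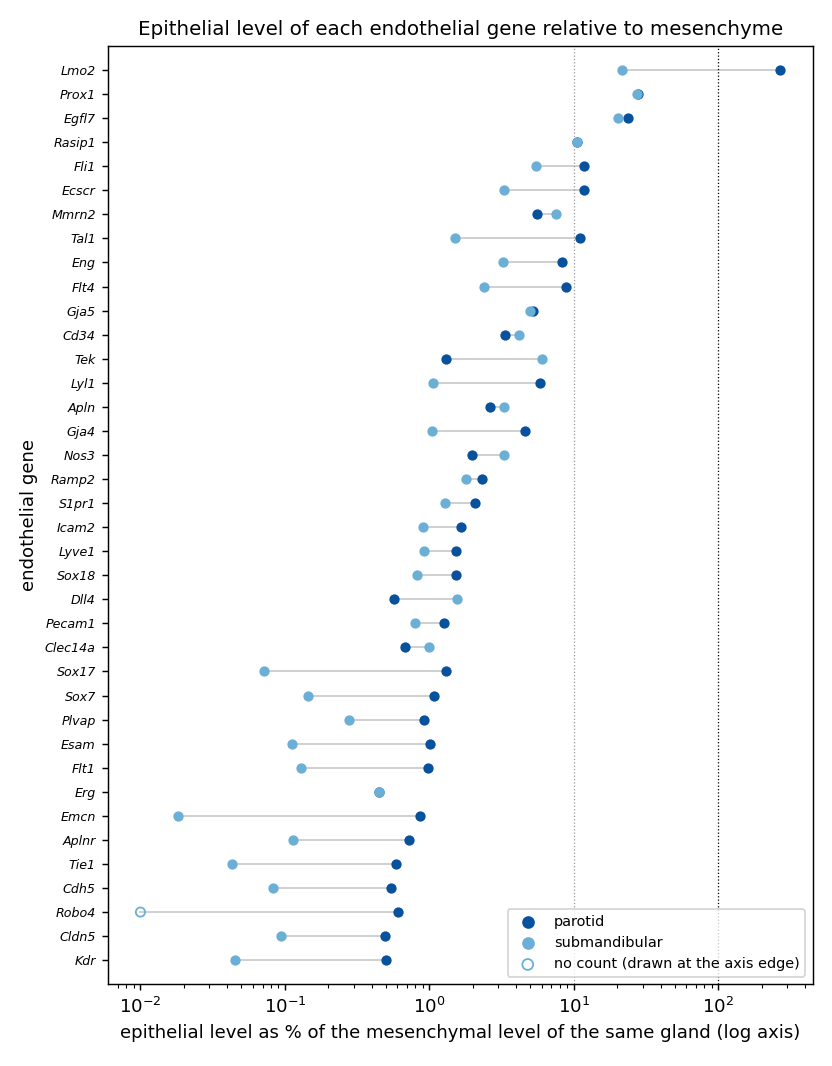
Mean epithelial level of each endothelial gene as a percentage of its mean mesenchymal level in the same gland, on a log axis, with dotted lines at 10% and 100%. Lmo2 in the parotid gland is the only point to the right of 100%, at 269%, and Prox1 and Egfl7 lie between 20.1% and 27.9% in both glands.

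The start regions of 5 members are printed here, so that a member with almost no epithelial transcript can be set beside one with more. They were drawn from part of the members with 1 promoter entry each in RefSeq, as the 3 lowest and 2 highest in epithelial share. Other members, Lmo2, Prox1 and Egfl7 among them, had higher epithelial shares than these 5. Averaged over the glands, the epithelial level was 0.271% of the mesenchymal level for Kdr, 0.293% for the tight junction gene Cldn5 and 0.305% for Robo4, an endothelial guidance receptor. It was 5.78% for Eng, a coreceptor for BMP9, and 10.5% for Rasip1. Each sequence runs 5′ to 3′ on the gene's strand, from 250 bases before to 50 bases after the start in RefSeq on build GRCm38.p6. Capitals mark the ETS core GGAAG and the SOX core ACAAT on either strand, so also CTTCC and ATTGT.
Kdr, chr5:75978406-75978705, minus strand: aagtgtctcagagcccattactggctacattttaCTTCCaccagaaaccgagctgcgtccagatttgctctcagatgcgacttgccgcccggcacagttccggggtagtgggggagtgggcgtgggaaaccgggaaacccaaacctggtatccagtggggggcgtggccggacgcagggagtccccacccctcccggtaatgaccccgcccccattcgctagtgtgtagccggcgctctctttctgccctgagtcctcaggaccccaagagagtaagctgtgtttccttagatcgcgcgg
Cldn5, chr16:18776597-18776896, plus strand: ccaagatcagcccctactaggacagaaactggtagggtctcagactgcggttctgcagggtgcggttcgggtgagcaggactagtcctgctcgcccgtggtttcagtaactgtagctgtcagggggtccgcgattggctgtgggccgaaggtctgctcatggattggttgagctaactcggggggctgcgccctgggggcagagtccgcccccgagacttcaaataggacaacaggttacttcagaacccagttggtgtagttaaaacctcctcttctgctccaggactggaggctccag
Robo4, chr9:37401722-37402021, plus strand: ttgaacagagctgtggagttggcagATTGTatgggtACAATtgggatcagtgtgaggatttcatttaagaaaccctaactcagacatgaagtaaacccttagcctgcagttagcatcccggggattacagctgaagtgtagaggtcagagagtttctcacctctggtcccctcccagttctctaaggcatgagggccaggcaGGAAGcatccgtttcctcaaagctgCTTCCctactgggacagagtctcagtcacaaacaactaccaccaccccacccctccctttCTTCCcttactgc
Eng, chr2:32646345-32646644, plus strand: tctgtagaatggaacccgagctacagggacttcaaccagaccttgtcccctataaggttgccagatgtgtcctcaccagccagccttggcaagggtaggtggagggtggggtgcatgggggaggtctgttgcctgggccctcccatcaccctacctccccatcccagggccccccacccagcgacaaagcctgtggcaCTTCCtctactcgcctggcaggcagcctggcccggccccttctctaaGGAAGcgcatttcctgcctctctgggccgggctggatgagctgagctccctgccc
Rasip1, chr7:45627287-45627586, plus strand: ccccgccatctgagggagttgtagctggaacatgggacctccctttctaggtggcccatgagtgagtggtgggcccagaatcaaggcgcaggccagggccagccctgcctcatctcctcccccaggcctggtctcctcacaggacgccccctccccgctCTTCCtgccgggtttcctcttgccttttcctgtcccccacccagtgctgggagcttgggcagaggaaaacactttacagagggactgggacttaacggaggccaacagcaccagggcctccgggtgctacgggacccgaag
Robo4 had 3 ETS and 2 SOX matches, Eng had 2 ETS matches, Kdr and Rasip1 had 1 ETS match each, and Cldn5 had neither. Of the 38 members, 21 had entries, 27 in all: GGAAG was in 22 of these (81.5%), against 71.4% of all 32851 promoter entries, and ACAAT was in 8 (29.6%), against 31.02%. These are matches of letters, not sites of binding.

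A few members had more than a trace of transcript in the epithelium. Prox1, the homeobox gene that sets lymphatic fate and that several epithelia also use, was at 1.27, 2.39, 1.70 and 2.12 CPM in parotid epithelium, against 10.2, 6.57, 6.91 and 3.13 CPM in parotid mesenchyme. It was at 2.01, 2.38, 6.58 and 2.90 CPM in submandibular epithelium, against 12.4, 10.5, 13.6 and 14.4 CPM in submandibular mesenchyme. The layers did not overlap in either gland, and the log2 difference, mesenchyme over epithelium, was 1.84 ± 0.38 in the parotid (adjusted p = 0.000389) and 1.89 ± 0.37 in the submandibular gland (adjusted p = 0.000216). Epithelial Prox1 was thus 27.9% of the mesenchymal level in the parotid and 27.3% in the submandibular gland.

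Egfl7, a secreted endothelial matrix protein, was also found in both layers. It was at 38.4, 42.4, 31.5 and 39.1 CPM in parotid mesenchyme and at 8.44, 7.79, 10.8 and 8.67 CPM in parotid epithelium. In the submandibular gland it was at 44.6, 42.6, 46.0 and 51.3 CPM in mesenchyme and at 9.02, 9.07, 8.49 and 10.5 CPM in epithelium. The epithelial libraries of the glands overlapped, at 23.6% of the mesenchymal level in the parotid and 20.1% in the submandibular gland. Exons of Egfl7 overlap those of Gm20532, over 7.37% of their bases, and of Mir126a on its own strand, and those of Agpat2 and Mir126b on the other strand, and the kit kept no strand, so reads of these genes cannot be told apart. Rasip1 was at 2.502, 4.46, 3.82 and 3.32 CPM in parotid epithelium, against 34.6, 42.4, 25.7 and 31.5 CPM in parotid mesenchyme. It was at 1.80, 3.31, 2.81 and 2.53 CPM in submandibular epithelium, against 21.8, 25.1, 23.8 and 29.2 CPM in submandibular mesenchyme. The epithelial share was 10.5% in the parotid and 10.4% in the submandibular gland, and 20.4% of the exon bases of Rasip1 overlap Izumo1.

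Lmo2, which codes for a LIM-domain adaptor of blood and endothelial transcription complexes, did not follow the other members. It was at 17.7, 22.9, 13.98 and 16.1 CPM in parotid mesenchyme and at 50.9, 48.3, 43.3 and 47.6 CPM in parotid epithelium. In the submandibular gland it was at 26.7, 22.7, 25.3 and 28.4 CPM in mesenchyme and at 5.03, 6.21, 5.89 and 4.99 CPM in epithelium. The highest group was therefore parotid epithelium and the lowest submandibular epithelium, with no overlap between the layers of either gland. The log2 difference, mesenchyme over epithelium, was -1.43 ± 0.14 in the parotid (adjusted p = 8.67e-08) and 2.22 ± 0.14 in the submandibular gland (adjusted p = 6.86e-10). Lmo2 lies at chr2:103957986-103981878 on the plus strand (GRCm38, GENCODE M21). In parotid epithelium it was the highest member per kilobase of exon, at 21.9 CPM per kb.

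Per kilobase of exon, the order of the mesenchymal levels was led by the same pair of genes in both glands. Plvap, a protein of endothelial fenestrae, stood at 56.0 CPM per kb in parotid mesenchyme and 53.5 CPM per kb in submandibular mesenchyme. Aplnr, the apelin receptor of angiogenic and venous endothelium, followed at 32.01 and 28.8 CPM per kb. Kdr stood at 17.99 and 17.7 CPM per kb. The transcription factors Tal1, Lyl1 and Erg were the lowest in parotid mesenchyme, at 0.45, 0.55 and 0.77 CPM per kb.

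Between the mesenchymes of the glands, few endothelial genes were called in the main fit, and more in some alternatives. In parotid against submandibular mesenchyme, 2 of 38 were called higher (Lyve1, Apln) and 2 lower (S1pr1, Lmo2), or 10.53% of the members, where 34.5% of all tested genes were called (20.8% higher and 13.7% lower). The median log2 difference, parotid over submandibular, was 0.02 for the members and 0.04 for all tested genes. The summed level was 1630 ± 300.3 CPM in parotid mesenchyme and 1678 ± 219.7 CPM in submandibular mesenchyme (SD, n = 4 each), a difference smaller than either spread. At an unadjusted p under 0.05, 11 members passed. The libraries of the glands did not overlap for 8 members (21.1%), against 36.8% of all tested genes. Scaling by library totals alone put the median of all tested genes at -0.14 and the share of calls that were higher at 37.4%, against 60.3% with TMM, and with it 2 members were called higher and 7 lower. Without replicate 2 of parotid mesenchyme 4 were lower, with Gja4 and Pecam1 added, and without replicate 1 Prox1 was added. With only the 8 mesenchymal libraries in the fit, 4 members were higher and 9 lower, where 6707 of 16420 tested genes were called. The 4 members called in the main fit kept their direction and their call under all 17 alternatives.

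**Figure D3:**
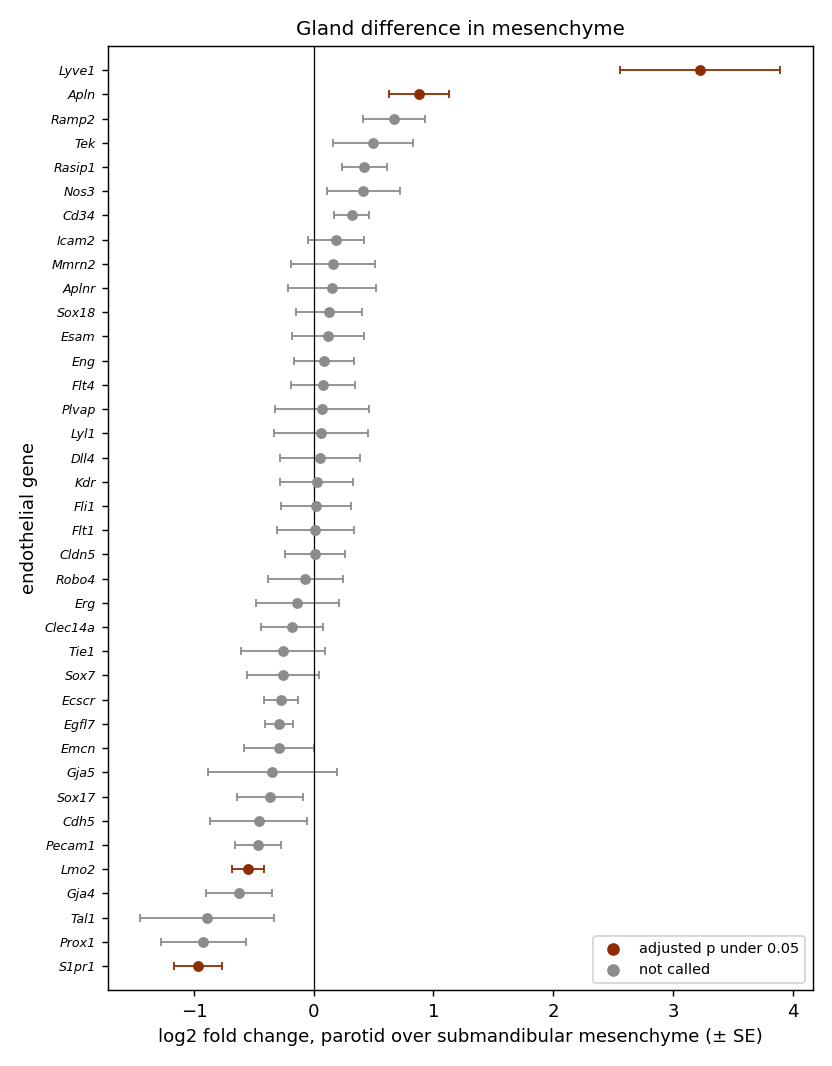
Log2 difference of each endothelial gene in mesenchyme, parotid over submandibular, with bars of 1 SE from the edgeR fit; red points are called at an adjusted p under 0.05. Most points lie close to 0, Lyve1 stands out at 3.23 and S1pr1 is lowest at -0.96.

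Lyve1, the hyaluronan receptor of lymphatic endothelium, differed most. It was at 5.42, 9.53, 7.90 and 13.9 CPM in parotid mesenchyme, against 0.766, 0.350, 0.103 and 2.72 CPM in submandibular mesenchyme. Every parotid library lay above every submandibular one, and the log2 difference was 3.23 ± 0.67 (9.36-fold, adjusted p = 0.00130). The other lymphatic genes did not move with it. Prox1 averaged 6.72 ± 2.91 CPM in parotid mesenchyme and 12.7 ± 1.69 CPM in submandibular mesenchyme, with no overlap, but missed the threshold (log2 difference -0.92 ± 0.35, adjusted p = 0.0533) and was called lower in 7 of 17 alternatives. Flt4 averaged 32.98 ± 5.05 CPM in parotid mesenchyme and 31.2 ± 4.72 CPM in submandibular mesenchyme.

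Of 6 further lymphatic genes, 1 was higher in parotid mesenchyme (the integrin chain Itga9, log2 difference 0.95) and 3 were lower, Pdpn, Ccl21a and Foxc2. Of all tested genes 20.8% were called higher there and 13.7% lower. Pdpn and Itga9 were themselves called lower in mesenchyme than in epithelium, in each gland. Ccl21a, Mmrn1 and Foxc2 were called higher in mesenchyme in each gland, and Reln in the parotid only. The part of lymphatic endothelium in the Pdpn and Itga9 differences between the glands was not tested. Ccl21a, a chemokine of lymphatic endothelium, was at 0.322, 1.15, 0.197 and 0.140 CPM in parotid mesenchyme, against 7.20, 10.04, 11.4 and 7.41 CPM in submandibular mesenchyme. It had no overlap and a log2 difference of -4.35 ± 0.64 (adjusted p = 0.000127), opposite in sign to that of Lyve1. Foxc2, a forkhead factor of lymphatic valves, averaged 1.27 ± 0.530 CPM in parotid mesenchyme and 4.70 ± 1.80 CPM in submandibular mesenchyme (log2 difference -1.88 ± 0.46, adjusted p = 0.00405).

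Lyve1 is also made by some tissue macrophages. The 12 macrophage and leukocyte markers summed to 141 ± 33.3 CPM in parotid mesenchyme (92.3 to 164) and to 81.9 ± 18.1 CPM in submandibular mesenchyme (67.8 to 109). Of the 12, 2 were called higher (Mrc1, Cd68), where 20.8% of all tested genes were, and none lower, where 13.7% were. Mrc1, a mannose receptor that lymphatic endothelium also carries, averaged 18.9 ± 4.09 CPM in parotid mesenchyme and 7.60 ± 3.72 CPM in submandibular mesenchyme (log2 difference 1.31, adjusted p = 0.00262). The part of macrophages in the Lyve1 difference was not tested.

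Apln, the ligand apelin made by sprouting tip cells, was at 23.1, 27.2, 26.5 and 23.0 CPM in parotid mesenchyme, against 11.5, 14.2, 10.5 and 17.97 CPM in submandibular mesenchyme. The groups did not overlap, and the log2 difference was 0.88 ± 0.25 (1.84-fold, adjusted p = 0.0114). Its receptor gene Aplnr averaged 118 ± 28.7 CPM in parotid mesenchyme and 107 ± 19.8 CPM in submandibular mesenchyme, with overlapping libraries. S1pr1, a sphingosine-1-phosphate receptor that restrains sprouting and keeps vessels tight, was at 35.4, 58.0, 34.0 and 47.2 CPM in parotid mesenchyme, against 87.5, 88.1, 87.6 and 77.4 CPM in submandibular mesenchyme. All 4 parotid libraries lay below all 4 submandibular ones (log2 difference -0.96 ± 0.20, adjusted p = 0.00139). As a share of the summed endothelial level without Lmo2, S1pr1 took 2.70% in parotid and 5.24% in submandibular mesenchyme, and Apln took 1.57% in parotid and 0.815% in submandibular mesenchyme. Shares of some members not called in the main fit also lay apart, in both directions. Pecam1 took 5.89 to 6.34% in parotid and 7.82 to 8.95% in submandibular mesenchyme. Gja4 took 0.713 to 1.09% in parotid and 1.32 to 1.56% in submandibular mesenchyme, and Rasip1 1.81 to 2.22% and 1.46 to 1.63%. Lmo2 in mesenchyme was lower in the parotid (log2 difference -0.55 ± 0.14, adjusted p = 0.00466), although replicate 2 of the parotid, at 22.9 CPM, lay just above replicate 2 of the submandibular gland, at 22.7 CPM.

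None of the 4 arterial genes was called between the mesenchymes. Gja4, the gap junction gene for connexin 37, averaged 15.3 ± 5.10 CPM in parotid mesenchyme and 23.6 ± 3.85 CPM in submandibular mesenchyme (log2 difference -0.63 ± 0.28, adjusted p = 0.0917). Gja5, for connexin 40, was at 27.7, 39.2, 51.9 and 2.19 CPM in parotid mesenchyme, against 37.5, 26.3, 37.7 and 52.3 CPM in submandibular mesenchyme. Replicate 4 of parotid mesenchyme thus had far less Gja5 than any other mesenchymal library, and the log2 difference was -0.34 ± 0.54 (adjusted p = 0.665). That library was also lowest of its group for Gja4, at 10.2 CPM, Sox17, at 7.28 CPM, Tek, at 44.9 CPM, and Clec14a, at 24.7 CPM. Such lows were not confined to arterial genes or to this library: it was the lowest for 16 of the 38 members, and replicate 3 for 19. Dll4, the Notch ligand of tip cells and arteries, averaged 11.98 ± 3.76 CPM in parotid mesenchyme and 11.5 ± 2.65 CPM in submandibular mesenchyme. Sox17 averaged 10.9 ± 3.22 CPM in parotid mesenchyme and 14.03 ± 1.33 CPM in submandibular mesenchyme.

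**Figure D4:**
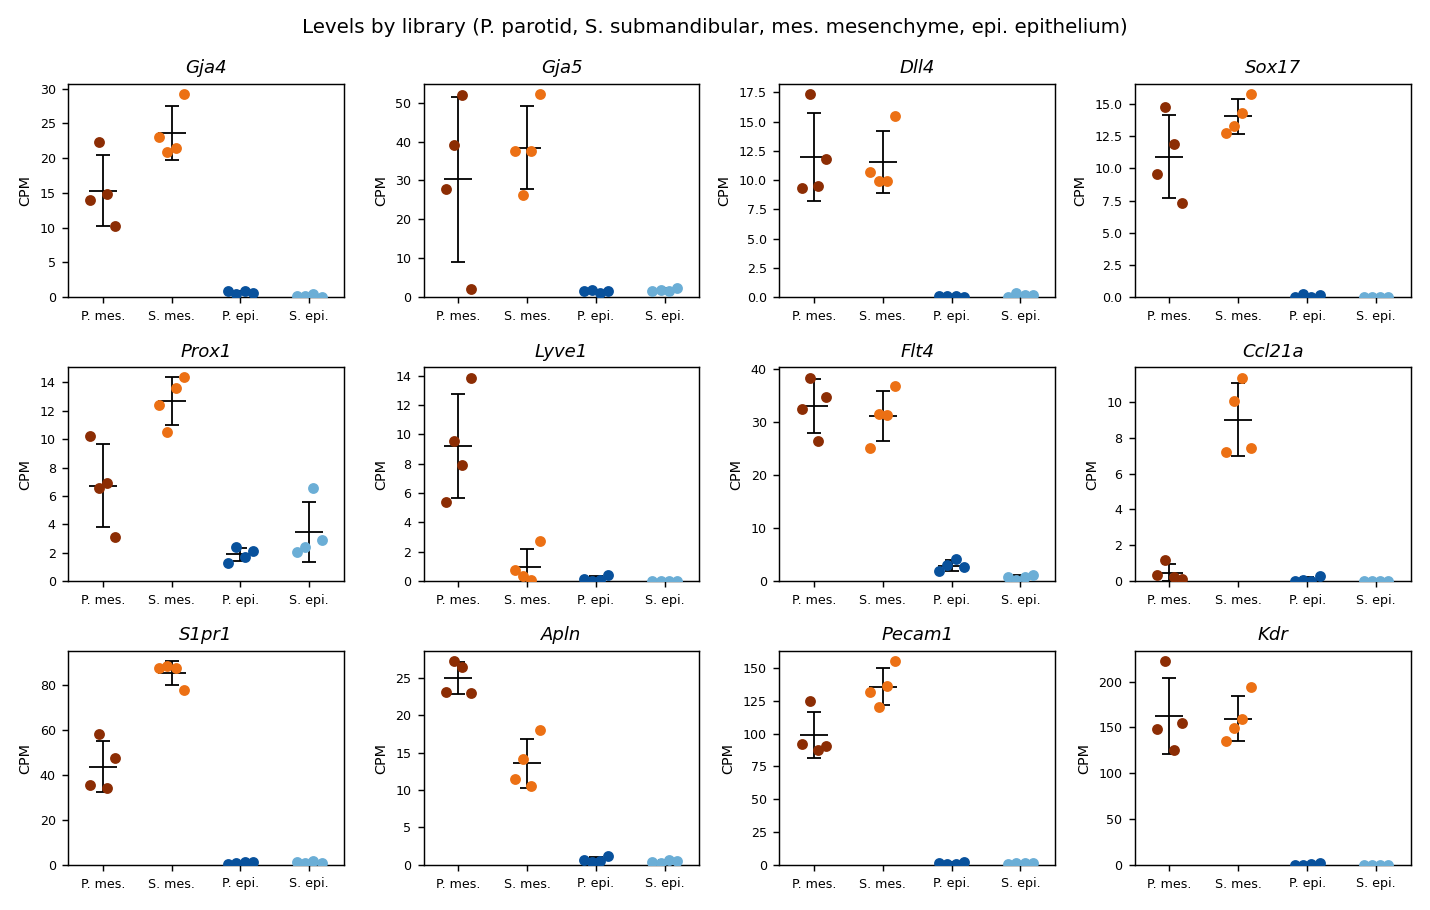
CPM of arterial (Gja4, Gja5, Dll4, Sox17), lymphatic (Prox1, Lyve1, Flt4, and Ccl21a from outside the 38) and general endothelial genes (S1pr1, Apln, Pecam1, Kdr) in parotid mesenchyme, submandibular mesenchyme, parotid epithelium and submandibular epithelium, left to right; points are libraries and bars are mean ± SD (n = 4). Lyve1 and Ccl21a separate the mesenchymes of the glands in opposite directions, S1pr1 is lower and Apln higher in the parotid, and 1 parotid library has 2.19 CPM of Gja5.

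None of the remaining general genes was called between the mesenchymes in the main fit, although the libraries of some did not overlap. Egfl7 was among these, and was lower in the parotid. Both Egfl7 and Pecam1 were called lower in several alternatives, DESeq2 and limma-voom among them. Kdr averaged 162 ± 41.6 CPM in parotid mesenchyme and 159.6 ± 24.9 CPM in submandibular mesenchyme, a log2 difference of 0.03 ± 0.31. Pecam1 averaged 98.7 ± 17.6 CPM in parotid mesenchyme and 136 ± 14.4 CPM in submandibular mesenchyme (log2 difference -0.46 ± 0.19, adjusted p = 0.0732). Ramp2, which pairs with the adrenomedullin receptor, averaged 48.8 ± 5.60 CPM in parotid mesenchyme and 30.6 ± 3.49 CPM in submandibular mesenchyme, without overlap (log2 difference 0.67 ± 0.26, adjusted p = 0.0552). It shares 33.4% of its exon bases with Vps25. Cd34, a sialomucin of endothelium and of some fibroblasts, averaged 142 ± 12.7 CPM in parotid mesenchyme and 114 ± 5.17 CPM in submandibular mesenchyme, also without overlap (log2 difference 0.32 ± 0.15, adjusted p = 0.109). None of the 11 junction and surface genes was called, and their median log2 difference was 0.01. Plvap averaged 111 ± 26.1 CPM in parotid mesenchyme and 106 ± 19.3 CPM in submandibular mesenchyme, and the TEK-related receptor gene Tie1 53.3 ± 12.9 CPM in parotid mesenchyme and 63.5 ± 11.8 CPM in submandibular mesenchyme. The adhesion gene Icam2 and the matrix gene Mmrn2 were not called in either gland comparison, nor were Cldn5, Clec14a, Sox18, Erg, Lyl1 and Nos3. The blood and endothelial factor gene Tal1 averaged 1.96 ± 0.529 CPM in parotid mesenchyme and 3.62 ± 0.262 CPM in submandibular mesenchyme, without overlap, but was not called (log2 difference -0.89 ± 0.56, adjusted p = 0.238). Of these genes Lyl1 was the lowest, at 0.990 CPM in parotid mesenchyme and 0.947 CPM in submandibular mesenchyme.

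In the further lists, calls in mesenchyme are read beside the 20.8% of all tested genes called higher there and the 13.7% called lower. Of 19 other endothelial-enriched genes tested, 2 were higher in parotid mesenchyme, Rhoj, at 80.8 ± 9.07 CPM in parotid mesenchyme against 55.8 ± 3.48 CPM in submandibular mesenchyme, and Calcrl, the partner of RAMP2, at 45.9 ± 10.9 CPM against 25.4 ± 4.81 CPM, and none was lower. Of 16 vascular growth factors and guidance ligands, 6 were higher and 3 lower. Vegfa was at 184, 164, 188 and 183 CPM in parotid mesenchyme, against 104, 103, 99.3 and 96.1 CPM in submandibular mesenchyme, so that the groups lay apart (log2 difference 0.84, adjusted p = 7.73e-06). The lymphatic growth factor gene Vegfc averaged 33.01 ± 6.92 CPM in parotid mesenchyme and 15.2 ± 1.89 CPM in submandibular mesenchyme (log2 difference 1.12, adjusted p = 0.0334). Sema3e, a repulsive cue for vessels, differed by a log2 difference of 2.76 (adjusted p = 0.000243) and Jag1, a Notch ligand, by 2.38 (adjusted p = 9.06e-08). The other 2 higher were Vegfd and Angpt1, the TEK ligand. Efnb2, for the arterial ephrin-B2, averaged 211 ± 17.4 CPM in parotid mesenchyme and 635 ± 61.3 CPM in submandibular mesenchyme (log2 difference -1.59, adjusted p = 9.71e-06), and Angpt2 and Angptl2 were also lower. Of 13 further arterial and venous genes, 3 were higher (Hey2, Notch1, Nrp1) and 2 lower (Efnb2 again, Nr2f2). Of 10 pericyte and smooth muscle markers, 8 were higher and none lower, with sums of 776 ± 71.3 CPM in parotid mesenchyme and 313 ± 28.1 CPM in submandibular mesenchyme. Erythroid markers, which come with the blood in the vessels, summed to a mean of 1758 CPM in parotid mesenchyme and 3637 CPM in submandibular mesenchyme, with ranges of 1457 to 2196 and 3335 to 4187 CPM. Of 11 such markers tested, 1 (Hbb-bh1) was called lower and none higher. Their log2 differences had a median of -0.32 and reached 0.55, so the sums do not stand for every marker.

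In the epithelium the levels were low. In parotid against submandibular epithelium, 13 of 38 members were called higher (34.2%), where 11.2% of all tested genes were, and 1 (Tek) was called lower, where 9.72% of all tested genes were. Most members passed the filter on low counts through their mesenchymal level, and 14 members in parotid epithelium and 12 in submandibular epithelium reached a mean of 1 CPM. The median log2 difference of the members was 1.49, against -0.00 over all tested genes. Most fitted values behind that median rest on few counts, so it cannot show a shift of the list as a whole. The libraries did not overlap for 6 members (15.8%), against 20.7% of all tested genes: Lmo2, Ecscr, Flt4, Eng and Sox17 were higher, as were 9.97% of all tested genes, and Tek lower, as were 10.7%. Without replicate 4 of parotid epithelium and replicate 1 of submandibular epithelium together, in which erythroid markers were highest among epithelial libraries, 5 members were higher (Lmo2, Ecscr, Flt4, Eng, Fli1) and 2 lower (Tek, Clec14a). In that fit 990 of 18362 tested genes were higher and 856 lower. Without submandibular replicate 1 alone 7 members were higher, where 1339 of 18572 tested genes were. Without parotid replicate 4 alone 8 members were higher, where 1567 of 18734 tested genes were.

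Lmo2 had the largest difference among members with at least 1 CPM in both epithelia. At 47.5 ± 3.14 CPM in parotid epithelium and 5.53 ± 0.613 CPM in submandibular epithelium it was 8.60-fold higher in the parotid (log2 difference 3.10 ± 0.15, adjusted p = 8.59e-10; 3.07 to 3.18 over 17 alternatives). The list of 6 genes for partners of LMO2 in such complexes was made after the Lmo2 values had been seen. Of these 6, 4 were higher in parotid epithelium (Ldb1, Gata1, Gata2, Tcf3), none was lower, and Gata3 and Cbfa2t3 were not called. The blood and endothelial factor genes Tal1 and Lyl1, members and so outside these 6, were not called there either. Lyl1 had 5 counts over the libraries of parotid epithelium and 1 over those of submandibular epithelium. Of all tested genes, 11.2% were called higher there and 9.72% lower. Gata1 had 20 counts over the libraries of parotid epithelium and 1 over those of submandibular epithelium, so few counts lie behind its call. A joint change of these genes was not tested. Gata2 was at 10.6, 24.1, 21.6 and 12.9 CPM in parotid epithelium, against 0.108, 0.0403, 0.477 and 0.257 CPM in submandibular epithelium, with no overlap (log2 difference 6.35 ± 0.51, adjusted p = 4.05e-07). In mesenchyme Gata2 averaged 5.75 ± 2.22 CPM in the parotid and 6.03 ± 1.93 CPM in the submandibular gland.

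Ecscr, for a surface protein of endothelial filopodia, was at 2.12, 1.92, 2.45 and 1.88 CPM in parotid epithelium, against 0.647, 0.887, 0.637 and 0.660 CPM in submandibular epithelium. The groups lay apart (log2 difference 1.56 ± 0.18, adjusted p = 1.37e-05), and the parotid epithelial level was 11.7% of the mesenchymal one. In mesenchyme Ecscr averaged 17.8 ± 1.93 CPM in the parotid and 21.5 ± 2.47 CPM in the submandibular gland. Flt4 was at 1.91, 3.00, 4.19 and 2.60 CPM in parotid epithelium, against 0.827, 0.161, 0.796 and 1.21 CPM in submandibular epithelium, without overlap (log2 difference 1.95 ± 0.35, adjusted p = 0.000882). Eng was at 2.59, 6.80, 4.95 and 5.01 CPM in parotid epithelium, against 1.87, 2.26, 0.743 and 2.16 CPM in submandibular epithelium, also without overlap (log2 difference 1.42 ± 0.30, adjusted p = 0.00355). Lmo2, Ecscr, Flt4 and Eng were called higher in parotid epithelium under all 17 alternatives. Fli1, an ETS factor of endothelium and blood, was at 5.22, 6.05, 2.36 and 4.43 CPM in parotid epithelium, against 3.63, 0.927, 2.33 and 1.32 CPM in submandibular epithelium. Those libraries overlapped, and the call (log2 difference 1.13 ± 0.33, adjusted p = 0.0249) held in 12 of 17 alternatives, and was lost without parotid replicate 2, submandibular replicate 2 or submandibular replicate 4. Parotid epithelial Fli1 was 11.8% of the level in parotid mesenchyme, which was 41.1, 42.6, 30.5 and 38.3 CPM.

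Tek, the angiopoietin receptor TIE2, ran the other way. It was at 0.594, 0.141, 1.18 and 1.93 CPM in parotid epithelium, against 2.16, 3.75, 2.33 and 4.33 CPM in submandibular epithelium. Every parotid library was below every submandibular one (log2 difference -1.73 ± 0.46, adjusted p = 0.0164), and the call held in 14 of 17 alternatives. In mesenchyme Tek averaged 73.8 ± 24.02 CPM in the parotid and 52.4 ± 11.2 CPM in the submandibular gland, where it was not called.

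**Figure D5:**
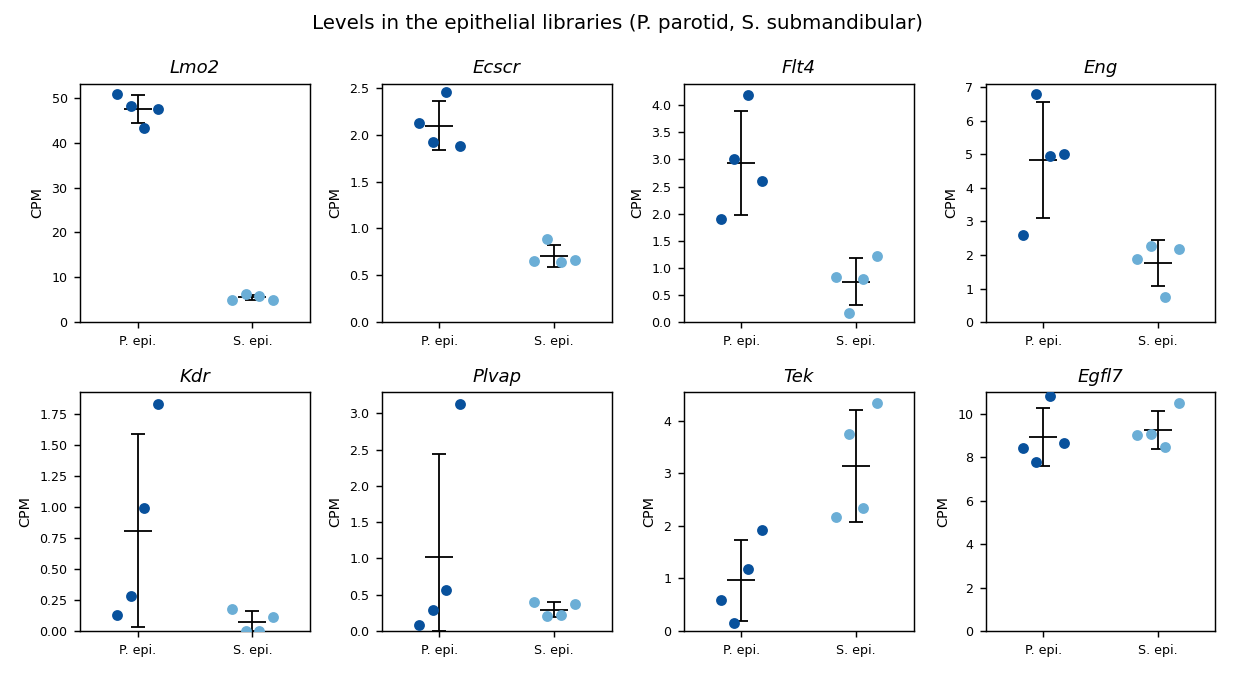
CPM of Lmo2, Ecscr, Flt4, Eng, Kdr, Plvap, Tek and Egfl7 in parotid epithelium, left, and submandibular epithelium, right; points are libraries and bars are mean ± SD (n = 4), with an axis of its own for each gene. Lmo2, Ecscr, Flt4 and Eng are higher in every parotid library, Tek is lower in every one, Egfl7 overlaps, and 1 parotid library leads Kdr, at 1.83 CPM, and Plvap, at 3.13 CPM.

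The other 8 called members averaged under 1 CPM in both epithelia, where few counts lie behind a value. Gja4 was at 0.890, 0.469, 0.896 and 0.578 CPM in parotid epithelium, against 0.144, 0.242, 0.530 and 0.0733 CPM in submandibular epithelium, and the groups overlapped (log2 difference 1.61 ± 0.45, adjusted p = 0.0178). Kdr, given per library above, had a log2 difference of 3.20 ± 0.88 (adjusted p = 0.0190). Flt1, the decoy-like VEGF receptor 1, was at 0, 0.0938, 0.754 and 0.867 CPM in parotid epithelium, against 0.0719, 0.0806, 0 and 0.0733 CPM in submandibular epithelium. The Flt1 groups overlapped, as did those of the junction protein gene Esam and of Sox7, a SOXF factor. Esam was at 0.0848, 0.798, 0.189 and 1.11 CPM in parotid epithelium, against 0.0360, 0, 0 and 0.183 CPM in submandibular epithelium. Sox7 was at 0.212, 0.0469, 0.518 and 0.819 CPM in parotid epithelium, against 0.144, 0, 0 and 0.110 CPM in submandibular epithelium. Adjusted p was 0.0432 for Flt1, 0.0180 for Esam and 0.0432 for Sox7 in edgeR. With the replicate number as a block, adjusted p in edgeR was 0.0721 for Flt1 and 0.0648 for Sox7, which were then not called, and 0.0463 for Ramp2, which was then called higher.

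Sox17, Emcn and Robo4 had almost no counts in submandibular epithelium. Sox17 had 12 counts over the 4 parotid and 1 over the 4 submandibular libraries, a depth-scaled ratio of 13.6 (95% counting interval 2.02 to 583). Its libraries were at 0.0424, 0.281, 0.0471 and 0.193 CPM in parotid epithelium, against 0, 0.0403, 0 and 0 CPM in submandibular epithelium. Emcn, for the sialomucin endomucin, had 33 counts in parotid and 1 in submandibular epithelium, a ratio of 37.5 (6.28 to 1526). It was at 0.170, 0.328, 0 and 1.06 CPM in parotid epithelium, against 0, 0.0403, 0 and 0 CPM in submandibular epithelium. Robo4 was at 0, 0.235, 0 and 0.482 CPM in parotid epithelium, 15 counts in all, against no count in submandibular epithelium, so it was at least 5.68-fold higher, with the floor of 3 counts taken over the group. Adjusted p was 0.0188 for Sox17, 0.0107 for Emcn and 0.0334 for Robo4 in edgeR. Intervals and floors cover counting error only.

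All 8 of these low members lost their call when parotid replicate 4 and submandibular replicate 1 were left out together. With 1 epithelial library left out, Emcn kept its call each time. Kdr lost it without parotid replicate 3 or 4, Gja4 without parotid replicate 3 or submandibular replicate 1, and Sox17 without parotid replicate 2 or submandibular replicate 1. Esam lost it without parotid replicate 2 or 4 or submandibular replicate 1, and Robo4 without any of those or submandibular replicate 2 or 4. Flt1 and Sox7 lost it without parotid replicate 3 or 4 or any 1 of the submandibular libraries.

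Of the 3 defining markers, Kdr was called higher in parotid epithelium, as above, and Pecam1 and Cdh5 were not called. Pecam1 was at 1.14, 0.610, 0.848 and 2.36 CPM in parotid epithelium, against 1.01, 1.17, 1.06 and 1.06 CPM in submandibular epithelium, with overlap (log2 difference 0.20 ± 0.31, adjusted p = 0.682). Cdh5 was at 0, 0.0938, 0.0943 and 1.30 CPM in parotid epithelium, against 0, 0.0403, 0.0530 and 0.220 CPM in submandibular epithelium, also with overlap (adjusted p = 0.266). Markers of other cells moved between these libraries too, where 11.2% of all tested genes were called higher in the parotid. Macrophage and leukocyte markers summed to 29.2 ± 4.54 CPM in parotid epithelium (22.6 to 32.8) and 8.60 ± 4.23 CPM in submandibular epithelium (3.63 to 13.9), with 8 of 12 called higher. The 10 mesenchymal markers summed to 174, 131, 411 and 381 CPM in parotid epithelium and to 40.9, 46.5, 311 and 118 CPM in submandibular epithelium, with 4 called higher. Erythroid markers reached 502 CPM in parotid replicate 4 and 741 CPM in submandibular replicate 1. The part of these cells in the endothelial differences was not tested.

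In the further vascular lists, calls in the epithelium are read beside the 20.9% of all tested genes called there. Of the 19 other endothelial-enriched genes, 4 were higher in parotid epithelium (Adgrf5, Bcl6b, Rhoj, Exoc3l2) and none lower. Rhoj averaged 113 ± 16.7 CPM in parotid epithelium and 31.2 ± 8.95 CPM in submandibular epithelium (log2 difference 1.85, adjusted p = 1.79e-06), and like Lmo2 it was lower in mesenchyme than in epithelium in the parotid gland. Vegfa averaged 133 ± 18.8 CPM in parotid epithelium and 77.5 ± 9.15 CPM in submandibular epithelium (log2 difference 0.78, adjusted p = 4.96e-05). It was 1 of 3 growth factor genes higher there, with Vegfc and Ccbe1. Adm, for adrenomedullin, was the single one lower, at 1.19 ± 0.683 CPM in parotid epithelium and 6.49 ± 2.69 CPM in submandibular epithelium. Of the 13 further arterial and venous genes, Nrp1, a coreceptor for VEGF and semaphorins, was higher in parotid epithelium (log2 difference 2.67), and 4 were lower: the receptor genes Notch1 and Unc5b, the kinase gene Bmx and the venous factor gene Nr2f2. None of the 6 further lymphatic genes was called.

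The gland difference was tested against itself across layers. The difference between parotid and submandibular was smaller or more negative in mesenchyme than in epithelium for 11 members, where 8.67% of all tested genes were called in that direction, and larger for 1 (Tek), where 12.2% were. Of those 11, 7 averaged under 1 CPM in both epithelia (Gja4, Sox17, Kdr, Robo4, Esam, Emcn, Sox7) and passed the filter on low counts through mesenchyme. Lmo2 led, at -3.65 ± 0.20 (adjusted p = 4.19e-09), followed in adjusted p by Ecscr, at -1.83 ± 0.23 (adjusted p = 2.14e-05). Tek had 2.22 ± 0.57 (adjusted p = 0.0117). This test shares its libraries with the comparisons within each layer and adds no independent sample to them. Without replicate 4 of parotid epithelium or replicate 2 of submandibular epithelium, 7 members were called in the negative direction.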

How the data were processed

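Bulk RNA-seq gene counts and CPM values were used, from 4 groups of 4 libraries set by gland and layer in the labels. Per the labels' protocols, total RNA went through a full-length SMART cDNA kit and an unstranded tagmentation library kit, and was sequenced on a NextSeq instrument. Per the submitters' processing notes, STAR 2.5.2a, edgeR and the build GRCm38 (mm10) were used; for the read counter and gene annotation, nothing is stated (not given in the sources used here). Raw counts per gene, and a normalized expression signal in CPM scaled by TMM factors, were deposited by the authors; the deposited CPM were recomputed from the counts to within 4.98e-15.

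The 92 spike-in features were left out. Counts were fitted with edgeR 4.0.16 in R 4.3.3 (filterByExpr, TMM, robust quasi-likelihood F test, 1 model over 16 libraries, 5 contrasts), and p-values were adjusted by Benjamini-Hochberg over 18191 of 48709 gene features. A call needed an adjusted p under 0.05. SE is the size of the log2 difference over the square root of F. The script was tested on simulated counts. All 38 members passed the filter. Depth ran from 16912258 to 27646844 counts, at which 0.1 CPM is about 1.83 counts. Same-numbered parotid and submandibular epithelial libraries deviated together (r 0.10 to 0.33, over 0.1 in 4 of 4 pairs). No label states a pairing. The main fit, with its p-values and SE, was unpaired, and replicate number entered as a block only in an alternative. Replicate libraries differed beyond sampling noise, and p-values measure only the spread between these libraries. Alternatives were RLE factors, library totals, DESeq2 1.42.0, limma-voom (limma 3.58.1), other filters, fewer libraries and a replicate block.

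The members and all gene lists were chosen with earlier results of these data known. Every member is accounted for. Full values are given for members called in a gland contrast, for members with an epithelial mean of at least 1 CPM and at least 10% of the mesenchymal level, and for Pecam1, Cdh5 and Kdr. From each other list, up to 4 called genes with the largest differences are named, beside those needed for a count. Coordinates and exon lengths are from GENCODE M21 (GRCm38), and promoters from RefSeq (GRCm38.p6).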

Additional observations from a re-analysis of the deposited data

Results flagged for a closer look

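A library standing apart within its group of 4, by Dixon's 95% criterion, was found in 10 of 114 sets of 1 gene in 1 group with a mean of at least 10 counts; chance gives about 1 in 20. In parotid mesenchyme, replicate 2 was high for Pecam1 (125 CPM, others 87.7 to 91.8) and Cdh5 (101 CPM, others 55.0 to 62.6), and replicate 4 was low for Clec14a (24.7 CPM, others 39.5 to 41.5). In submandibular mesenchyme, replicate 4 was high for Dll4 (15.5 CPM, others 9.94 to 10.7) and Robo4 (38.8 CPM, others 27.4 to 29.2) and low for S1pr1 (77.4 CPM, others 87.5 to 88.1), and replicate 2 was low for Cd34 (106 CPM, others 115 to 117). In parotid epithelium, replicate 4 was high for Plvap (3.13 CPM, others 0.0848 to 0.566) and Icam2 (1.06 CPM, others 0.236 to 0.375). In submandibular epithelium, replicate 2 was high for Ecscr (0.887 CPM, others 0.637 to 0.660).

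The gland difference (log2, parotid over submandibular) in mesenchyme minus that in epithelium passed edgeR's test for 12 members. It was positive for Tek, at 2.22. It was negative for Lmo2 (-3.65), Ecscr (-1.83), Flt4 (-1.86), Eng (-1.33), Gja4 (-2.24), Kdr (-3.18), Esam (-2.90) and Sox7 (-2.64). It was also negative for Sox17 (-3.55), Robo4 (-5.03) and Emcn (-4.90), whose fitted values rest on at most 1 count in submandibular epithelium. Erythroid markers in the epithelial libraries were highest in parotid replicate 4 (502 CPM) and submandibular replicate 1 (741 CPM), and their part in these differences was not tested.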

How the results depend on the processing

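Among single members, no called value reversed under any alternative, and every call between layers held in every alternative that tested the gene; Lyl1 did not pass the stricter filter, nor Lyve1 in the submandibular gland with only the 8 libraries compared. In parotid against submandibular mesenchyme 2 members were higher and 2 lower, where 6282 of 18191 tested genes were called. With library totals alone 7 were lower (6785 of 18191 genes called). DESeq2 gave 3 higher and 6 lower (6689 of 18191), and limma-voom 5 and 6 (6411 of 18191). The stricter filter of 1 CPM in 4 libraries gave 2 and 5 (5988 of 15934). With only the 8 libraries compared it was 4 and 9 (6707 of 16420), and without the erythroid-rich epithelial pair 3 and 5 (6263 of 18362). In parotid against submandibular epithelium 13 members were higher and 1 lower, where 3801 of 18191 tested genes were called. Limma-voom gave 5 higher and 0 lower (3898 of 18191), and no filter 7 and 0 (3199 of 36401). Without that pair it was 5 and 2 (1846 of 18362), and with only the 8 libraries 4 and 0 (2738 of 15921). With only those 8 libraries 17 of the 38 members were tested, so 7 of the 10 lost calls were not tested and 3 (Gja4, Tek, Fli1) failed. For 11 members the gland difference was more negative in mesenchyme and for 1 more positive; limma-voom gave 5 negative, no filter gave 6 negative and 0 positive, and leaving out the pair gave 7 negative and 2 positive. Calls over all genes for this difference numbered 3799, 3771 in limma-voom, 3141 with no filter and 2964 without the pair. Leaving out each library in turn gave 2 higher and 2 to 4 lower in mesenchyme, with 5325 to 5970 genes called over all tested. In epithelium it gave 7 to 18 higher and 1 to 2 lower (2452 to 4540 genes). For the difference across layers it gave 1 to 2 positive and 7 to 15 negative (3152 to 3922 genes). In the epithelium 18 members were higher without parotid replicate 1 (4540 genes called). It was 7 without submandibular replicate 1 (2452) and 8 without parotid replicate 4 (2822). The cause of these shifts was not tested.

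Same-numbered libraries correlated at 0.10 to 0.33 between the epithelia. Between the layers of the submandibular gland they correlated at 0.08 to 0.31, over 0.1 in 3 of 4 pairs. In the other pairs of groups they correlated at -0.13 to 0.17. Even between the epithelia, parotid replicate 2 correlated more with submandibular replicate 4 (0.18) than with submandibular replicate 2 (0.17). Over all pairs of groups, the best match had the same number in 8 of 24 cases. With the replicate block, fitted over all 16 libraries, 12 members were higher and 1 lower in epithelium, where Flt1 and Sox7 lost their call, Ramp2 gained one and no other call changed. In mesenchyme 3 were higher and 2 lower, and for the difference across layers 1 was positive and 10 negative, without Sox7. Over all tested genes, the block gave 3980 calls in epithelium, 6343 in mesenchyme and 3871 across layers.

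Depth limits the epithelial values: 7 members had 1 to 3 counts in total in submandibular epithelium and 1 had none.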
